A study of Mus musculus with 8 samples.

Results

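The 10 genes described here encode the integrin subunits that mammary epithelial cells are known to carry, chosen by name as Itga1, Itga3, Itga5, Itga6, Itga9, Itgav, Itgb1, Itgb4, Itgb5 and Itgb6, out of 27998 genes measured. They were read in single-cell RNA sequencing of EpCAM+ cells sorted from C57BL/6N mice, with CD31, CD45 and Ter119 used to leave out endothelial, immune and red blood cells. The stages were nulliparous (NP, 8 weeks of age), gestation (G, day 14.5), lactation (L, day 6) and post involution (PI, day 11 after natural weaning), each with 2 mice, with no treatment or genetic change named in the labels. By the study's vaginal smears, both NP mice and PI mouse 2 were in oestrus and PI mouse 1 in dioestrus, so the stage of the cycle differed within PI. UMIs (unique molecular identifiers, 1 for each captured RNA molecule) were summed over the cells of a mouse and a cluster of the study's own annotation wherever that sum held at least 20 cells, and expressed as counts per 1000000 UMIs (CPM).

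An integrin is a heterodimer of an α and a β subunit that spans the membrane and ties the matrix outside the cell to the cytoskeleton inside. β1 pairs with many α chains: α3β1 and α6β1 bind laminin, α1β1 binds collagen, α5β1 binds fibronectin, and α9β1 binds tenascin-C and osteopontin. α6β4 is the laminin receptor of hemidesmosomes, while αvβ5 and αvβ6 bind vitronectin or fibronectin, and αvβ6 can release active TGF-β from its latent complex. In the mammary gland basal cells sit on the basement membrane, and α6 (CD49f) and β1 (CD29) are the surface proteins by which they are commonly sorted from luminal cells. All values below are RNA levels, and surface protein was not measured.

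Each subunit gene was matched by its Ensembl gene ID to the GRCm38 annotation. The collagen receptor gene Itga1 (chr13:114953096-115101964, minus strand), the fibronectin receptor gene Itga5 (chr15:103344286-103366763, minus strand) and the tenascin receptor gene Itga9 (chr9:118606690-118901003, plus strand) encode α chains that pair with β1. The laminin receptor chains are Itga3 (chr11:95044474-95076801, minus strand), Itga6 (chr2:71745616-71858416, plus strand) and Itgb4 (chr11:115974709-116008412, plus strand). Itgb1 lies at chr8:128685654-128733200 on the plus strand. The αv family is Itgav (chr2:83724397-83806916, plus strand), Itgb5 (chr16:33829665-33949338, plus strand) and Itgb6 (chr2:60598292-60722643, minus strand).

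RefSeq promoter windows of GRCm38.p6, 250 bases before to 50 after a start site, were found for 8 of the 10 genes, and Itga6 and Itgb4 had no entry. Those of 4 genes are shown because their RNA moved together or apart: Itga1 and Itga5 rose together in lactating basal cells, and Itgb5 and Itgb6 went opposite ways in luminal progenitors after involution. Capitals mark the GC box (GGGCGG, or CCGCCC for the other strand), and all sequences read 5′ to 3′ on the strand of the gene.
Itga1, chr13:115101915-115102214: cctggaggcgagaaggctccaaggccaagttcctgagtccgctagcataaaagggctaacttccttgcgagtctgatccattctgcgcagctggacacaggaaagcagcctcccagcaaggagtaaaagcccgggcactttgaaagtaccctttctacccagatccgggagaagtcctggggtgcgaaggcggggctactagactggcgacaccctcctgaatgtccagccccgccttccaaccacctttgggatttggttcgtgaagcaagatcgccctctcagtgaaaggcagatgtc
Itga5, chr15:103366742-103367041: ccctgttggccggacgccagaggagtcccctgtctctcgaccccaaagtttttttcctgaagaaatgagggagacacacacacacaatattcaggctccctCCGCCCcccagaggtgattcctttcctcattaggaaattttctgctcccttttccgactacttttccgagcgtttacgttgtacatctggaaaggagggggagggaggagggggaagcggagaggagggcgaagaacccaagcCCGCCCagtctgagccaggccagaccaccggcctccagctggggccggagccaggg
Itgb5, chr16:33829415-33829714: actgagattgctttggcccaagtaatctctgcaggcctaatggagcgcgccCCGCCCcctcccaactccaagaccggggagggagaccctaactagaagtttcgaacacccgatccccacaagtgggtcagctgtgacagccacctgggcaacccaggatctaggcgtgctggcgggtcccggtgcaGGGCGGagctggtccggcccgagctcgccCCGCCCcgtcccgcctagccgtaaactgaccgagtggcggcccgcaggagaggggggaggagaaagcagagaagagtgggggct
Itgb6, chr2:60722554-60722853: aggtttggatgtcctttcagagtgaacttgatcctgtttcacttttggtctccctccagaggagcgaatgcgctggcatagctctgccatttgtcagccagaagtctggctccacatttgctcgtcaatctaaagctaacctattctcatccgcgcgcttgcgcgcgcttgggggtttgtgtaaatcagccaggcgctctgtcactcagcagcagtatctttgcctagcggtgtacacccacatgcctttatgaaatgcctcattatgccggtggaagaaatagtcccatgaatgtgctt
The Itgb5 window held 3 GC boxes and the Itga5 window 2, while those of Itga1 and Itgb6 held none, against 35.7% of all 32851 promoter windows with at least 1. G and C made up 65.7% of the Itgb5 window, 58.7% of that of Itga5, 56.7% of that of Itga1 and 50.3% of that of Itgb6, against a median of 52.7% over all windows. None of these 4 windows held a CArG box, an AP-1 site (TGACTCA or TGAGTCA) or a TATA box (TATAAA, both strands), which were found in 1.63%, 5.2% and 13.6% of all windows. RefSeq gave a second start for Itgb6, inside the gene, and its window (chr2:60673644-60673943, minus strand) held 1 CArG box. A match is a string of letters and not evidence of a bound factor.

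The 8 libraries held 25806 barcodes, of which 25009 cells passed the study's filters, with 13306760 to 34552742 UMIs per library in those cells. Of the barcode sequences 392 occurred in more than 1 library but none of these repeats was among the cells kept. In lactation, luminal cells were few (190 and 142 cells) and carried RNA of basal genes: the summed level of 7 basal markers in them was 5408 and 3287 CPM, against 58.95 to 218.1 CPM in the luminal cells of the other 6 mice. Basal cells were few after involution (28 and 59 cells). Their summed level of 4 luminal markers was 3034 and 7184 CPM in PI and 5815 and 3909 CPM in NP, against 1253 to 2246 CPM in G and L.

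Across the 15 clusters named C1 to C15 by the study, levels are given as a description because the clusters were built from the same counts. Itga1, Itga3, Itga5, Itga6 and Itga9, 5 of the 6 α chains, and Itgb1 were lower in luminal than in basal cells of the same mouse in 8 of 8 mice. The mean log2 ratio of luminal to basal CPM was −5.44 ± 1.78 (SD, n = 8 mice) for Itga1, −4.91 ± 1.98 for Itga9, −3.36 ± 1.23 for Itga5 and −2.87 ± 0.81 for Itga3. Smaller gaps were seen for Itgb1 (−1.68 ± 0.61) and Itga6 (−1.45 ± 0.77), the 2 sort markers. For comparison the basal keratin gene Krt14 had a ratio of −5.92 ± 1.82 and the luminal keratin gene Krt18 one of 3.07 ± 0.83. Itgb4 (−0.44 ± 0.39) and Itgb5 (−0.93 ± 0.62) were higher in luminal cells of 2 and 1 of the 8 mice. For Itgb4 this count depended on the setting, at 0 of 8 once cells of high depth were left out and 3 of 8 with milk genes left out or with the mean over cells in place of the sum. The luminal values of Itga1 and Itga9 rest on 2 to 23 and 2 to 18 UMIs a mouse. Their basal values in PI rest on 3 and 7 UMIs over both mice.

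Itgav and Itgb6 had ratios that turned with the stage. The luminal cells compared were not of the same clusters at each stage: C8, alveolar cells, held 1926 of 2037 and 1818 of 1988 of them in G, and in L most were of C9 and C11, while in NP and PI most were hormone-sensing cells and luminal progenitors (C1 to C4, C6 and C7). Stage and cell type cannot be told apart in these ratios. Luminal Itgav was 180.1 and 153.4 CPM in NP and 217.5 and 187.5 CPM in PI, above the basal level of the same mouse in each of these 4 mice. In G it was 44.8 and 51.6 CPM in luminal cells against 186.9 and 228.2 CPM in basal cells, and in L 57.8 and 82.3 CPM against 155.3 and 147.8 CPM. Itgb6 was higher in luminal than in basal cells in 6 of 8 mice, by a log2 ratio of 0.66 to 2.36 in the NP and G mice, and lower in both L mice. In the PI mice the basal level rests on 1 UMI each. The highest luminal Itgb6 levels, 44.9 and 37.4 CPM, were those of the NP mice, and the lowest, 1.17 and 3.66 CPM, those of the L mice.

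**Figure D1:**
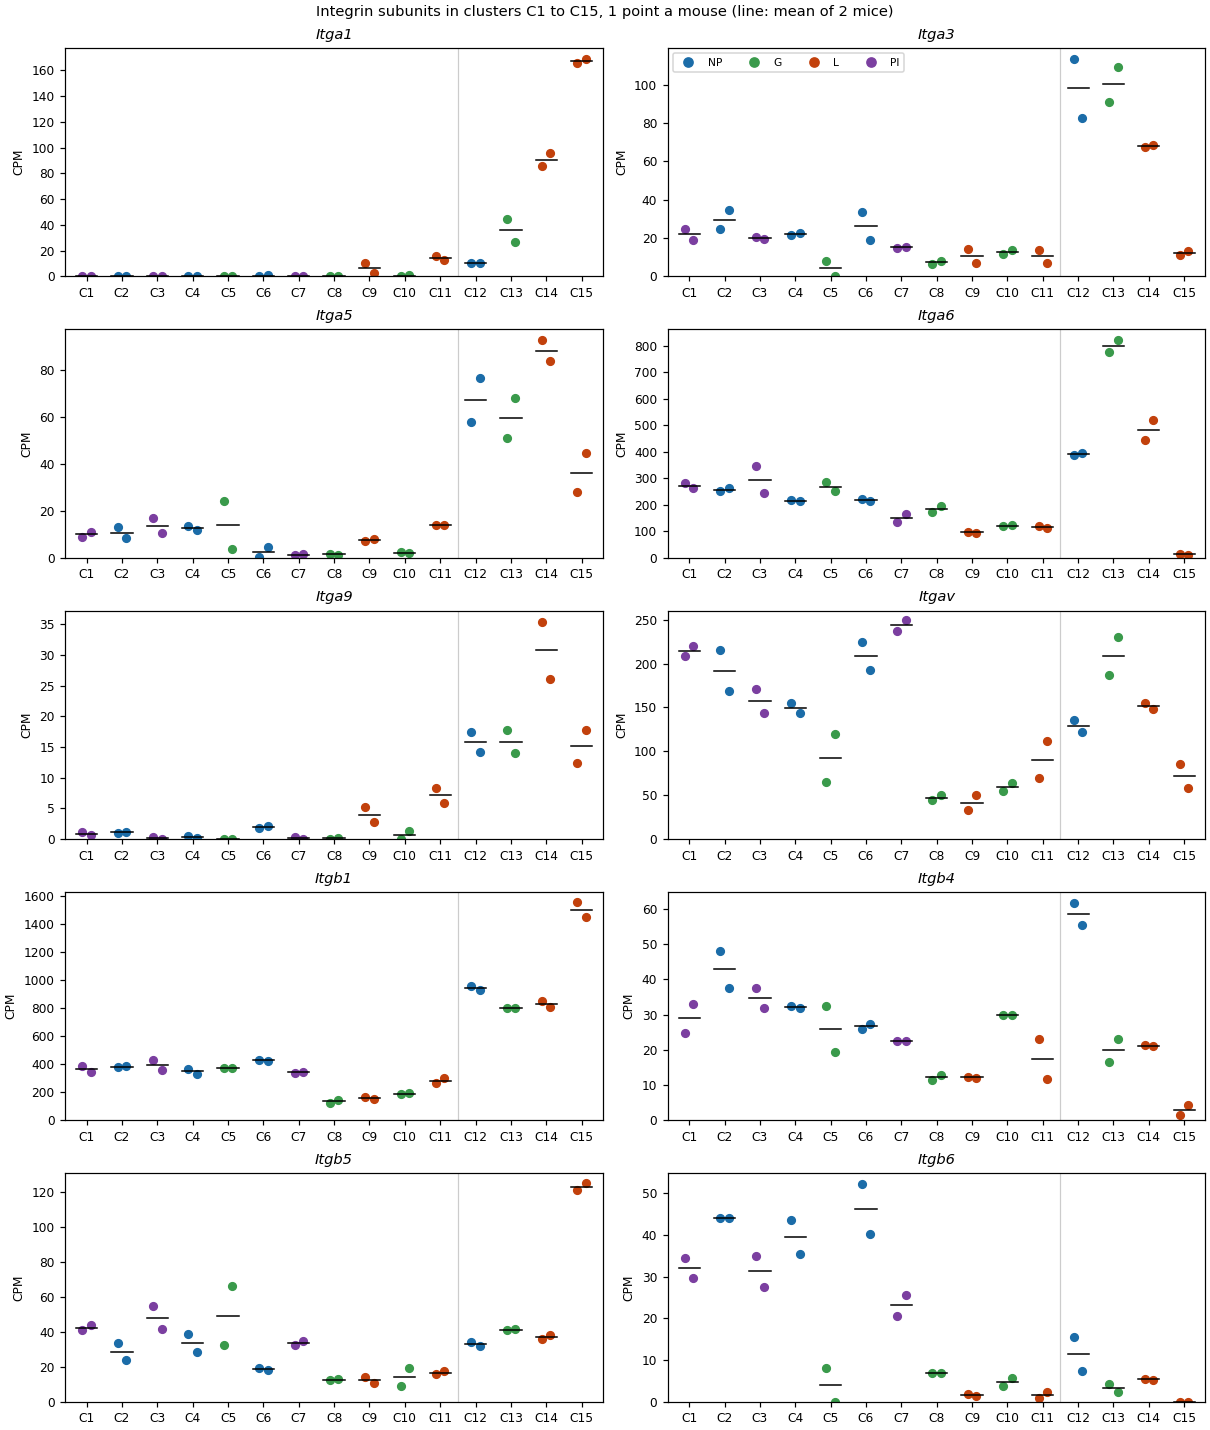
CPM (y axis, linear, from 0) of each subunit in clusters C1 to C15 at the stage that holds most of the cluster, with 1 point per mouse coloured by stage and a line at the mean of 2 mice. C1 to C11, left of the grey line, are luminal, and C12 to C15 basal. Itga6 peaked in C13 of gestation at 775 and 822 CPM, and Itgb6 in the NP clusters C6, C2 and C4 at 35.4 to 52.2 CPM.

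Because 3′ UMI counts do not grow with transcript length, the subunits can be set side by side as shares of the UMIs of all 10. Itgb1 had the highest mean share in each cluster but C8, from 37.1% of the integrin UMIs in C1 to 77.3% in C15. In C8 Itga6 led (45.0%, against 33.4% for Itgb1), and in the gestation basal cluster C13 the shares of Itga6 and Itgb1 were alike (38.3% and 38.4%). Itgav came next after these in the NP and PI luminal clusters C1 to C4 and C6, at 15.95% to 21.7%, and in C7 its share of 29.3% was above that of Itga6 (17.8%). The summed level of the 10 subunits was 1761 ± 45.9 CPM (SD, n = 2 mice) in the NP basal cluster C12, 2083 ± 73.5 in C13 and 1805 ± 12.9 in the lactation myoepithelial cluster C14. In luminal clusters it was 976 ± 47.3 CPM in the NP progenitors C6 and 832.3 ± 42.4 in the PI progenitors C7, and it was lowest, at 405.6 ± 34.2 in C8 and 349.9 ± 16.5 in C9, in the differentiated alveolar clusters of G and L.

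**Figure D2:**
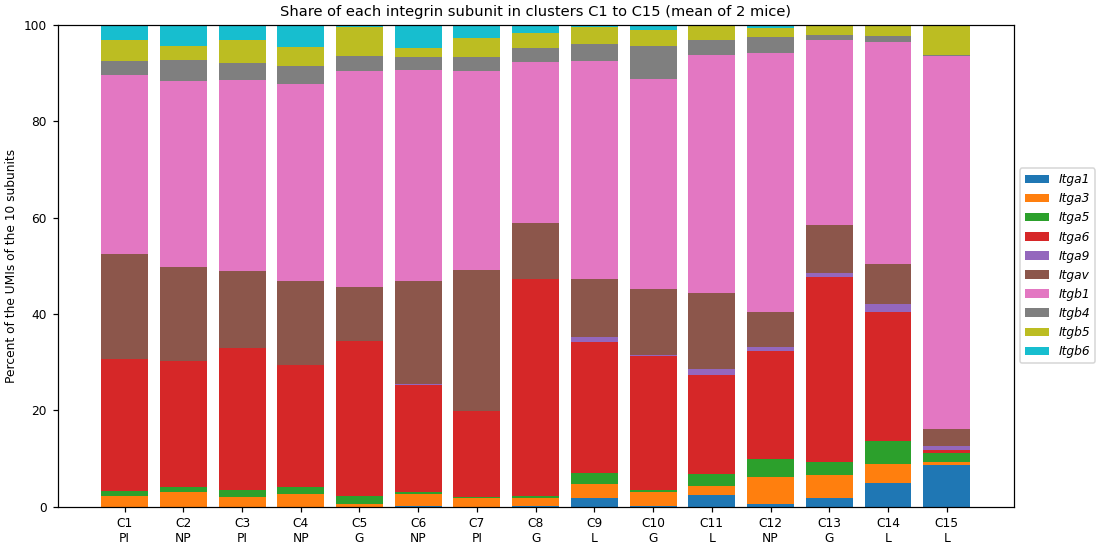
Share (y axis, percent, mean of 2 mice) of each subunit in the UMIs of the 10 subunits, by cluster and stage on the x axis, with 1 colour per subunit. Itgb1 and Itga6 fill most of each bar apart from C15, where Itgb1 makes up 77.3% and Itga1 8.64%.

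Cluster C15, the Procr+ cluster of lactation in which the study also saw pericyte markers, differed from C14 of the same mice in subunit make-up. It held the highest mean of the 15 clusters for Itgb1 (1556 and 1446 CPM), Itga1 (166.1 and 169.1 CPM) and Itgb5 (121.1 and 124.6 CPM). The hemidesmosome chains were lowest there, with Itga6 at 15.5 and 8.90 CPM and Itgb4 at 1.55 and 4.45 CPM, and no UMI of Itgb6 was seen, which allows up to 4.66 and 13.3 CPM in the 2 mice. In C14 Itga6 stood at 443.7 and 518.9 CPM. Outside the epithelium, Itgb5 was 108.4 to 121.5 CPM in the fibroblast cluster C18 and 219.3 to 299.5 CPM in the immune cluster C17 of lactation, and Itga1 was 73.0 and 112.9 CPM in the endothelial cluster C19. These subunits were thus not read in epithelial cells alone. Itgb6 was at most 2.33 CPM in C17 to C19 of lactation, but it was as low in the alveolar clusters of that stage, at most 1.75 CPM in C9 and 2.35 CPM in C11. In NP, where luminal Itgb6 was highest, it was 3.12 to 7.22 CPM in C18, from 24 and 56 cells.

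Among neighbours in the order of levels, Itgb6 in C6 (40.2 and 52.2 CPM) and C2 (44.1 and 44.2 CPM) overlapped between mice, as did Itga3 in C13 and C12 and Itga9 in C13, C12 and C15. Itga6 in C13, C14 and C12 did not overlap. At 1000 UMIs drawn per cell, 48.9% ± 3.95 (SD, n = 2 mice) of C13 cells held an Itga6 UMI, 34.6% ± 3.07 of C14, 30.7% ± 1.27 of C12 and 18.7% ± 1.75 of C6, against 0.244% ± 0.345 of C15 and 1.76% ± 2.49 of the fibroblast cluster C18. Without this thinning the shares were 97.4%, 76.9%, 86.0%, 71.6%, 2.83% and 3.87%, at median depths of 6060 to 6201 UMIs in C13, 2895 to 3683 in C15 and 4015 to 4044 in C18.

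Over the 35 sums of a mouse and a cluster from C1 to C15, each subunit's log2(CPM + 1) was compared with that of 9761 genes by Pearson's r, as a description of sums that share libraries and depth. Itga1 was most like Angptl2, Bgn and Mef2c (r = 0.959, 0.957 and 0.955), and Itga9 most like Col5a2, Nkd1 and Tpm2 (0.917, 0.908 and 0.900). The genes most like Itgb1 were Nbl1, Tacc1 and Bnip2 (0.941, 0.930 and 0.928), and those most like Itga5 were Ifitm3, Trim29 and Jag1 (0.901, 0.857 and 0.850). For Itga6 they were Apoc1, Sgk1 and Rps6ka1 (0.883, 0.857 and 0.825), and for Itga3 Sphk1, Fem1b and Atxn1 (0.858, 0.858 and 0.850). Itgav ran closest to Scarb2, Map2k3 and Cltb (0.897, 0.869 and 0.861), Itgb5 to Cmbl, Sdc2 and Bcr (0.821, 0.815 and 0.812), Itgb4 to Lsr, Serinc2 and Pak1 (0.862, 0.841 and 0.841), and Itgb6 to F3, Zbtb42 and Sipa1l3 (0.856, 0.819 and 0.8095). Between subunits the highest value was that of Itga1 with Itga9 (0.818) and the lowest that of Itga1 with Itgb6 (−0.627).

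The stage comparisons used sums per mouse within a cell class, with edgeR's quasi-likelihood test and p-values adjusted over all genes tested. Such a design of 2 mice against 2 cannot reach an exact permutation p below 0.333, so these calls rest on the spread that edgeR shares across genes.

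Basal cells changed their subunits between NP and G. In G the class is C13 for 525 of 528 and 594 of 604 cells, and in NP it is C12 save 1 cell. Itga6 rose 2.16-fold, Itga1 and Itgav rose, and Itgb4 and Itgb6 fell, so that the partners in α6β4 moved in opposite directions at the RNA level. Of the 10 subunits, all tested, 3 rose and 2 fell, against 24.3% and 21.9% of 11086 genes, so the share called was near that of genes in general. Itga6 was 386.9 and 396.0 CPM in NP and 773.7 and 817.1 CPM in G, a log2 fold change of 1.11 ± 0.12 (SE; edgeR adjusted p = 2.99e-06). Itgb4 went from 61.8 and 55.5 CPM to 17.1 and 24.2 CPM (−1.42 ± 0.19, adjusted p = 1.61e-05). The groups were apart in both genes, as they were in 7 of the 10 subunits, called or not. How often this held over all genes was not counted. The collagen receptor chain Itga1 was 10.1 and 10.47 CPM in NP and 44.5 and 26.3 CPM in G (1.87 ± 0.27, adjusted p = 3.94e-05). For Itgav the values were 135.4 and 121.1 CPM against 186.9 and 228.2 CPM (0.78 ± 0.13, adjusted p = 0.000205). Itgb6 was at 15.5 and 7.28 CPM in NP and 4.28 and 2.47 CPM in G (−1.76 ± 0.40, adjusted p = 0.00188). This call was lost without NP mouse 1 (−1.07, adjusted p = 0.159) and with cells of high depth left out (−1.07, adjusted p = 0.0604). The luminal marker sum moved with it, being higher in NP than in G basal cells as given above, and its part in the result was not tested. Itgb1, Itga3, Itga5, Itga9 and Itgb5 did not pass, with adjusted p from 0.0646 to 0.854.

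From G to L, basal cells had more RNA of Itga1, Itga5 and Itga9 and less of Itga6 and Itga3. In L the class is C14, the myoepithelial cluster of the study, for 4637 of 4639 and 3104 of 3105 cells. 3 of 10 subunits rose and 2 of 10 fell, against 24.2% and 24% of 12720 genes, so the share called was near that of genes in general. Itga1 rose again, from 44.5 and 26.3 CPM to 85.3 and 95.7 CPM (log2 fold change 1.475 ± 0.22, edgeR adjusted p = 0.000865). Itga9 was 17.6 and 13.9 CPM in G and 35.5 and 26.1 CPM in L (1.08 ± 0.21, adjusted p = 0.00304), and Itga5 50.8 and 68.0 CPM against 92.8 and 83.9 CPM (0.68 ± 0.16, adjusted p = 0.00763). The groups were apart for 9 of the 10 subunits, called or not, these 3 among them. Itga6 fell by 0.61 ± 0.12 on the log2 scale (adjusted p = 0.00346) to 443.7 and 518.8 CPM, a level still above that of both NP mice. Itga3 was 90.8 and 109.5 CPM in G and 67.6 and 68.6 CPM in L (−0.445 ± 0.14, adjusted p = 0.0253). Leaving out G mouse 2 or L mouse 1 ended the call of Itga3 (adjusted p = 0.157 and 0.0805). Itgb4 was 21.3 and 21.1 CPM in L and did not pass, nor did Itgb1 (0.17 ± 0.10, adjusted p = 0.185) or Itgb5. Itgav (−0.34 ± 0.13, adjusted p = 0.0578) and Itgb6 (0.79 ± 0.33, adjusted p = 0.0732) passed without G mouse 1 (adjusted p = 0.0171 and 0.0305). The same G mice serve in this comparison and the one before it.

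After involution basal cells gave few UMIs, and none of the 10 subunits passed the test against NP, with 4.74% of 8511 genes higher and 2.69% lower. At an unadjusted edgeR p under 0.05 there were 3 of 10 subunits, Itgb4, Itgb5 and Itgb1, against 1771 of 8511 genes. DESeq2 called none of the subunits. Itgb4 was 26.2 and 28.8 CPM in PI, from 3 and 9 UMIs, against 61.8 and 55.5 CPM in NP (log2 fold change −1.07 ± 0.38, edgeR adjusted p = 0.0874). Itgb5 was 69.9 and 57.6 CPM against 34.3 and 32.3 CPM (0.86 ± 0.34, adjusted p = 0.126). For Itga6 the values were 288.5 and 428.6 CPM, with the NP mice in between. Itgb1 was 690.7 and 758.1 CPM against 960.6 and 933.2 CPM (−0.39 ± 0.18, adjusted p = 0.202). Itga5, at 43.7 and 41.6 CPM against 57.8 and 76.5 CPM, and Itgav, at 139.9 and 156.7 CPM against 135.4 and 121.1 CPM, did not pass (adjusted p = 0.327 and 0.600). Nor did Itga3, at 218.6 and 83.2 CPM against 113.5 and 85.1 CPM, or Itga9, from 7 UMIs in PI (0.625 and 0.992). Itga1 (3 UMIs in PI) and Itgb6 (2 UMIs) had ratios to NP of 0.687 and 0.368, with 95% counting intervals of 0.138 to 2.1 and 0.0439 to 1.37. Of 5 immune markers 4 were at 0 in each PI mouse, and their summed level was 830.6 CPM in PI mouse 1 and 28.8 CPM in PI mouse 2, whose part in these levels was not tested.

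**Figure D3:**
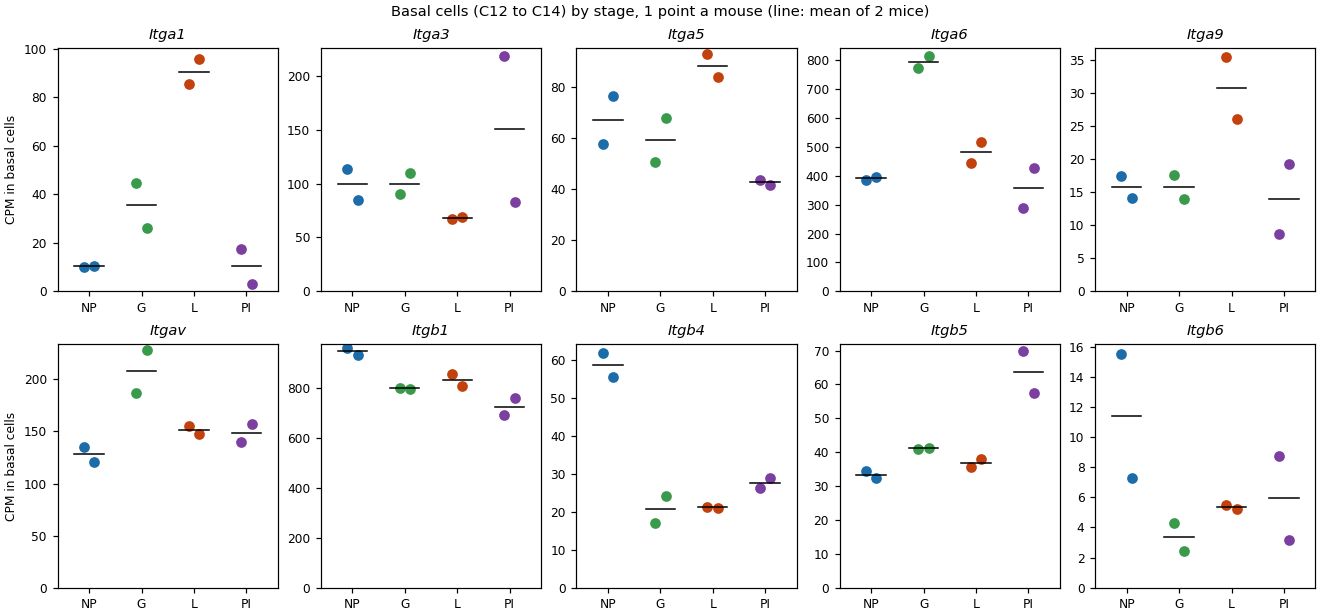
CPM (y axis, linear, from 0) of each subunit in basal cells (C12 to C14) at NP, G, L and PI, with 1 point per mouse and a line at the mean of 2 mice. Itga6 is highest in G (773.7 and 817.1 CPM), Itga1, Itga5 and Itga9 are highest in L, and Itgb4 is highest in NP (61.8 and 55.5 CPM).

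Genes that surround the subunits were counted over 3 lists, of 21 matrix ligands, 28 cytoplasmic or hemidesmosome partners and 17 other integrin subunits. In basal cells from NP to G, 14 of 19 tested ligand genes rose and 3 fell, with a median log2 fold change of 1.09 against 0.00878 over all genes, of which 24.3% rose and 21.9% fell. The summed level of 6 fibroblast markers in basal cells moved with these matrix genes, at 177 and 264.5 CPM in NP and 901.2 and 672.2 CPM in G with none at 0 in the 4 mice, and its part in their rise was not tested. Col1a1 is on both lists. Lama1, a laminin α chain, rose by 3.28 ± 0.27 on the log2 scale (edgeR adjusted p = 1.43e-07) and Nid1, the linker nidogen, by 2.38 ± 0.17 (4.17e-08), while Tnc, the α9β1 ligand tenascin-C, fell by 3.23 ± 0.35 (2.44e-06). Among adhesion partners, 15 of 26 tested rose and 3 fell (median 0.445). The largest changes were those of Tln2, Tns1 and Tns2 (1.67 ± 0.17, 1.44 ± 0.18 and 1.21 ± 0.45), a talin and tensins, which couple β tails to actin. From G to L, 4 of 20 ligand genes rose and 8 fell (median −0.393, against 0.0365 over all genes, of which 24.2% rose and 24% fell), among them Nid1 (−1.98 ± 0.16) and the basement membrane collagen Col4a1 (−1.68 ± 0.11), while Spp1, osteopontin, rose by 4.003 ± 0.44. Spp1 went from a mean of 2.06 to 30.2 CPM in these basal cells and stood at a mean of 18110 CPM in differentiated alveolar cells of lactation. The 4 alveolar markers were at 1051 and 588.9 CPM in G and 844.1 and 894.7 CPM in L basal cells, with none at 0, and the part of alveolar RNA in the rise of Spp1 was not tested. Of the adhesion partners 20 of 27 rose and 3 fell (median 0.515). The leading ones were Lims2 (5.24 ± 0.24), which encodes the ILK-binding protein PINCH2, Tns2 (3.00 ± 0.20) and Tns1 (2.52 ± 0.14). Of the other integrin subunits, 5 were tested from NP to G, where Itgb3 (2.95 ± 0.27) and Itga8 (1.64 ± 0.20) rose and Itgb8 fell by 0.89 ± 0.19 on the log2 scale. From G to L 7 were tested. Itga7 and Itga2b rose (2.64 ± 0.48 and 1.09 ± 0.215), and Itga2 and Itgb3 fell (−1.36 ± 0.24 and −0.51 ± 0.17). Between NP and PI no other subunit of 3 tested passed. Col4a1 and Col4a2 fell (−1.20 ± 0.31 and −1.17 ± 0.28), as did Ilk (−1.27 ± 0.31), and Pxn and Fermt1 rose (0.97 ± 0.24 and 0.95 ± 0.29), with 0 of 17 ligand genes higher and 2 lower, and 3 of 26 partners higher and 2 lower. Their medians were −0.39 and −0.33, against −0.0453 over all genes, of which 4.74% were higher and 2.69% lower.

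Luminal progenitors after involution had less Itgb6, Itga3 and Itga6 and more Itgb5 than those of NP mice. In NP this class is C6 save 1 cell, and in PI it is C7 for 824 of 846 and 1101 of 1110 cells. Of 7 subunits tested, 1 rose and 3 fell, against 13.9% and 13% of 10766 genes, and Itga1, Itga5 and Itga9 were too low to test. Itgb6 was 52.2 and 40.6 CPM in NP and 20.1 and 25.6 CPM in PI (log2 fold change −0.95 ± 0.18, edgeR adjusted p = 0.00309). Itgb5, the other β chain of αv here, was 19.3 and 17.8 CPM in NP and 32.5 and 34.5 CPM in PI (0.93 ± 0.17, adjusted p = 0.00223). The NP and PI mice were apart in both, as they were in all 7 subunits tested, called or not. Itgav itself did not pass, at 224.8 and 192.5 CPM against 238.7 and 249.9 CPM (0.31 ± 0.125, adjusted p = 0.0914). Itga6 was 221.2 and 212.8 CPM in NP and 131.9 and 164.5 CPM in PI (−0.47 ± 0.14, adjusted p = 0.0276), and Itga3 33.5 and 19.0 CPM against 14.98 and 15.6 CPM (−0.73 ± 0.23, adjusted p = 0.0378). DESeq2 called neither Itga6 nor Itga3 (adjusted p = 0.0572 and 0.164). Without NP mouse 1 the calls of Itga6 and Itga3 were lost (adjusted p = 0.116 and 0.535, with Itga3 at −0.26), as they were without PI mouse 1 (0.155 and 0.0727), and that of Itga6 without NP mouse 2 (0.0979). Itgb1 and Itgb4 did not pass (adjusted p = 0.178 and 0.550). The PI progenitors also held RNA of milk genes, with 6268 and 7625 CPM of 4 alveolar markers against 20.5 and 27.7 CPM in NP, and 4 subunits were likewise called with milk genes left out.

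In the same class 6 of 17 ligand genes rose and 3 fell (median log2 fold change −0.0175, against −0.0173 over all genes, of which 13.9% rose and 13% fell), with the largest changes in Spp1 (7.80 ± 0.55), Tnc (4.53 ± 0.32) and Fn1, fibronectin (−3.60 ± 0.61). Of the adhesion partners 3 of 25 rose and 10 fell (median −0.31), with the largest changes in Actn1 and Flna, actin crosslinkers (−1.72 ± 0.15 and −1.24 ± 0.17), and Tns3 (1.23 ± 0.16). Of 5 other subunits tested, Itga8 rose (1.83 ± 0.38), and Itga2 and Itgb8 fell (−1.02 ± 0.15 and −0.97 ± 0.14).

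In hormone-sensing cells no subunit passed between NP and PI. In hormone-sensing progenitors (C1 and C2) 0 of 8 tested were called, against 9.58% of 10692 genes higher and 7.05% lower. In differentiated cells (C3 and C4) it was 0 of 8, against 7.64% and 6.65% of 11994 genes. At an unadjusted edgeR p under 0.05, 4 of 8 subunits were counted in the progenitors, against 3302 of 10692 genes. In the differentiated cells it was 2 of 8, against 3507 of 11994 genes. DESeq2 called none in either. Itgb6 in progenitors was 44.0 and 44.2 CPM in NP and 35.4 and 29.5 CPM in PI (log2 fold change −0.48 ± 0.16, edgeR adjusted p = 0.0541). Itgb5 was 33.6 and 23.7 CPM against 41.0 and 43.4 CPM (0.54 ± 0.17, adjusted p = 0.0522). Without PI mouse 1 both passed (0.0297 and 0.0280), and without PI mouse 2 Itgb4 passed (−0.78, 0.00637). Itgb4 was 48.1 and 37.6 CPM in NP and 25.6 and 33.1 CPM in PI (−0.51 ± 0.18, adjusted p = 0.0679), and Itga3 24.7 and 34.4 CPM against 24.6 and 18.8 CPM (−0.48 ± 0.22, 0.159). Itga6, Itgav, Itgb1 and Itga5 had log2 fold changes of −0.12 to 0.15 (adjusted p from 0.497 to 0.806), and their groups overlapped. Itga1 and Itga9 were too low to test in both classes. In differentiated cells Itga6 was 216.1 and 214.6 CPM in NP and 341.9 and 243.7 CPM in PI (0.37 ± 0.17, adjusted p = 0.176). PI mouse 1, in dioestrus, was the higher one. Without PI mouse 2, Itga6 and Itgb5 passed (0.55 and 0.50, adjusted p = 0.0292 and 0.0403), and without PI mouse 1 Itgb6 did (−0.49, 0.0354). With all mice Itgb5 was 38.6 and 28.5 CPM in NP and 51.2 and 41.7 CPM in PI (0.40 ± 0.16, adjusted p = 0.130), and Itgb6 43.5 and 35.25 CPM against 37.0 and 27.7 CPM (−0.37 ± 0.16, 0.154). Itgav, Itgb1, Itga3, Itgb4 and Itga5 had log2 fold changes of −0.23 to 0.10 (adjusted p from 0.374 to 0.845).

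The change of Itga6 from NP to PI differed between luminal progenitors and differentiated hormone-sensing cells when the difference itself was tested with a term for each mouse. The change in luminal progenitors minus that in hormone-sensing cells was −0.84 ± 0.20 on the log2 scale (edgeR adjusted p = 0.0105). It was the only one called of 9 subunits tested, against 6.71% of 12160 genes with a higher and 6.27% with a lower change in luminal progenitors. Without PI mouse 1 it was −0.42 with an adjusted p of 0.127. For Itgb6 and Itgb5 the difference between the classes was −0.555 ± 0.23 and 0.54 ± 0.22 and did not pass (adjusted p = 0.120 and 0.126). Nor did Itgb1 (−0.34 ± 0.17, 0.209), Itga3 (−0.48 ± 0.27, 0.282) or Itgav (0.26 ± 0.17, 0.367), nor Itgb4, Itga5 and Itga9 (adjusted p from 0.453 to 0.800), while Itga1 was too low to test.

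In hormone-sensing progenitors 6 of 18 ligand genes rose and 2 fell (Spp1 9.21 ± 0.49, Tnc 4.06 ± 0.42, Nid1 2.525 ± 0.39), against the 9.58% and 7.05% of all genes given above, with a median log2 fold change of 0.49 (−0.0179 over all genes). Partners numbered 2 higher and 5 lower of 25 (median −0.17), with Tns3 (2.03 ± 0.24) and Tns4 (1.14 ± 0.23) up and the kindlin gene Fermt1 down (−1.74 ± 0.22), and Itga8 and Itgb3 rose among 5 other subunits (2.11 ± 0.31 and 1.68 ± 0.52). In differentiated cells 3 of 17 ligands rose and 3 fell (Spp1 from a mean of 0.137 to 9.48 CPM, Nid1 3.03 ± 0.46, Col4a2 −2.46 ± 0.56), and 3 of 25 partners rose and 4 fell (Fermt1 −4.401 ± 0.26, Tns3 2.50 ± 0.27, Zyx −1.055 ± 0.17). The medians were −0.0183 for ligands and −0.13 for partners, with −0.0208 over all genes, of which 7.64% rose and 6.65% fell. Itgb8 fell there among 5 other subunits (−2.06 ± 0.52), from 2.65 CPM in NP. In the test of the difference between classes, 5 of 19 ligands had a higher and 1 a lower change in luminal progenitors (Tnc 4.41 ± 0.88, Nid1 −3.91 ± 1.105, Col4a2 2.56 ± 0.68), against 6.71% and 6.27% of all genes. Their median was 0.20, that of the partners −0.29 and that of all genes 0.0066. 1 of 26 partners was higher and 6 lower (Fermt1 5.15 ± 0.37, Tns3 −1.27 ± 0.29, Actn1 −1.19 ± 0.18), and 1 of 6 other subunits was lower (Itga2 −1.04 ± 0.25).

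The hormone-sensing cells of gestation, cluster C5, numbered 20 and 41 cells. Against NP differentiated cells (C3 and C4), 0 of 8 subunits rose and 3 of 8 fell, with 8.03% of 10978 genes higher and 10.6% lower and a median log2 fold change of −0.20 over all genes. Itgb6 gave 1 UMI in 381612, against 1068 UMIs in NP, a ratio of 0.067 with a 95% counting interval of 0.0017 to 0.374 (edgeR adjusted p = 1.12e-05). Itga3 likewise gave 1 UMI against 611, a ratio of 0.117 with an interval of 0.00296 to 0.655 (adjusted p = 0.00435). Itgb6 and Itga3 entered the test only through NP, so they could only be called lower, and both are among the 3 that fell. In this fit edgeR took the spread of a gene wholly from that shared across genes. Without G mouse 2 both calls were lost (adjusted p = 0.134 and 0.479). Itga1 and Itga9 gave no UMI in C5. Itgav was 64.9 and 120.0 CPM in G and 154.7 and 143.5 CPM in NP (−0.80 ± 0.26, adjusted p = 0.0159), lost without G mouse 1 (0.230), with total UMIs in place of TMM scaling (0.139) and with DESeq2 (0.052), which did not call Itga3 either (0.0912). Markers moved with Itgb6, Itga3 and Itgav: the 4 alveolar markers were at 1095 and 584.4 CPM in C5, with 2 of 4 at 0 in each mouse, against 0.94 and 1.10 CPM in NP, and the 4 luminal markers at 9834 and 10580 CPM against 21550 and 16570 CPM. Their part in the result was not tested. Itga6, at 284.0 and 251.6 CPM, and Itgb1, at 373.2 and 375.4 CPM, did not pass, nor did Itga5, Itgb4 and Itgb5. Of 13 ligand genes 4 rose and 2 fell (median 0.86, with Nid1 3.78 ± 1.00 and Col4a2 2.70 ± 0.98), of 25 partners 3 rose and 9 fell (median −0.86, with Fermt1 from a mean of 64.6 to 1.94 CPM, Tns3 3.92 ± 0.68, Zyx −2.70 ± 0.43), and of 3 other subunits none passed.

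In alveolar cells, Itgb1, Itgav, Itga1 and Itga5 were called higher in L than in G in both classes. In alveolar progenitors (C10 and C11) 4 of 8 subunits rose and 0 fell, against 15.7% and 12.3% of 8446 genes. Itgb1 was 184.4 and 195.3 CPM in G and 265.9 and 297.9 CPM in L (log2 fold change 0.85 ± 0.15, edgeR adjusted p = 0.00264). Itgav was 54.3 and 64.3 CPM against 69.1 and 109.3 CPM (0.85 ± 0.23, adjusted p = 0.0231), a call lost without G mouse 1 or L mouse 2 (0.100 and 0.101), with total UMIs in place of TMM (0.0926), with DESeq2 (0.0856) and with cells of high depth left out (0.0611), and kept in 5 of 10 alternatives. Itga5 was 2.30 and 1.87 CPM in G and 13.3 and 13.8 CPM in L (2.93 ± 0.46, adjusted p = 0.00155). For Itga1 there was 1 UMI in G and 28 in L, a ratio of 40.8 with a 95% counting interval of 6.74 to 1670 (adjusted p = 0.000569). Itga1 and Itga5 were under the count filter in G and entered the test only through L, so they could only be called higher. Both are among the 4 that rose. Itga9 (2 and 14 UMIs) and Itgb6 (14 and 3 UMIs) were too low to test, with ratios of 10.2 (interval 2.34 to 92.4) and 0.312 (0.0575 to 1.12). Itga6, Itga3, Itgb4 and Itgb5 did not pass (adjusted p from 0.295 to 0.993).

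In differentiated alveolar cells (C8 and C9) 4 of 9 subunits rose and 0 fell, against 9.54% and 9.17% of 11860 genes. In L, 4 milk genes alone made up 243100 and 221100 CPM of these cells, against 46640 and 30840 CPM in G, and the median log2 fold change over all genes was −0.14 after TMM scaling. Itgb1 was 127.2 and 143.4 CPM in G and 169.7 and 149.0 CPM in L, a log2 fold change of 1.13 ± 0.17 with TMM (edgeR adjusted p = 0.000432) but 0.23 with total UMIs (adjusted p = 0.281). Itgav, at 44.1 and 49.8 CPM in G and 32.9 and 52.35 CPM in L, had a log2 fold change of 0.80 ± 0.24 with TMM (adjusted p = 0.0346) and −0.11 with total UMIs (0.728), so its direction turned with the scaling, and the call was lost without G mouse 1, G mouse 2 or L mouse 2 (0.106, 0.143 and 0.613, the last at 0.31) and with cells of high depth left out (0.139). For Itga6 the call depended on the scaling too. At 170.8 and 194.3 CPM in G and 95.2 and 94.0 CPM in L it was −0.04 ± 0.18 with TMM (0.893) and −0.95 with total UMIs (0.000486). Itga5 was 1.55 and 1.28 CPM in G and 6.93 and 8.05 CPM in L (3.305 ± 0.66, adjusted p = 0.00372, and 2.40 with total UMIs, 0.00483), lost without L mouse 2 (0.0526). Itga1, with 7 and 3 UMIs in the G mice and 6 and 2 UMIs in the L mice, had a log2 fold change of 5.72 ± 0.99 with TMM (adjusted p = 0.0016) and 4.82 with total UMIs (0.000572). Its ratio of UMI shares was 29.3 with a 95% counting interval of 10.0 to 82.4. Itga1 entered this test, too, only through L and could only be called higher, and it is among the 4 that rose. Itga9 was not tested, with 6 UMIs in G and 5 in L (ratio 30.5, interval 7.37 to 120), and Itgb6 gave 2 UMIs in L, a ratio to G of 0.218 (0.0263 to 0.793), not called with TMM (adjusted p = 0.312). Itga3, Itgb4 and Itgb5 did not pass (adjusted p = 0.0745, 0.130 and 0.148), though DESeq2 called Itga3 (0.0248).

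The levels of Itga1, Itga5 and Itga9 in lactation alveolar cells can be read beside those of basal markers in the same cells. In C11, Itga1 stood at 18.4% and 13.5% of the level in basal cells of the same mouse, Itga5 at 14.96% and 16.8% and Itga9 at 23.5% and 22.6%. The basal keratin genes Krt14 and Krt5 and the smooth muscle actin gene Acta2 stood at 17.5% and 14.1%, 13.6% and 12.6%, and 13.8% and 10.7%. Itga9, Itgb1 (31.0% and 37.05%) and Itgav (44.7% and 75.6%) were above these marker shares in both mice. In C10 of gestation Itgb1 already stood at 23.0% and 24.6% of basal cells, and Itgav at 29.1% and 28.15%. In C9 the 3 markers were at 2.73% to 6.27%, Itga1 at 12.3% and 2.82%, Itga5 at 7.53% and 9.64% and Itga9 at 14.8% and 10.35%. There Itga5 and Itga9 were above all 3 markers in both mice. They rest on 10 and 5 UMIs over both L mice in differentiated alveolar cells. In alveolar progenitors of lactation Itga9 rests on 14 UMIs over both mice. No counting interval was set on these shares. The 7 basal markers summed to 6964 and 5020 CPM in C11 and 2856 and 1379 CPM in C9, against 151.4 to 326.9 CPM in C8 and C10 of G, and none was at 0. Their part in the rise of Itga1, Itga5 and Itga9, and in that of Itgb1 and Itgav, was not tested.

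**Figure D4:**
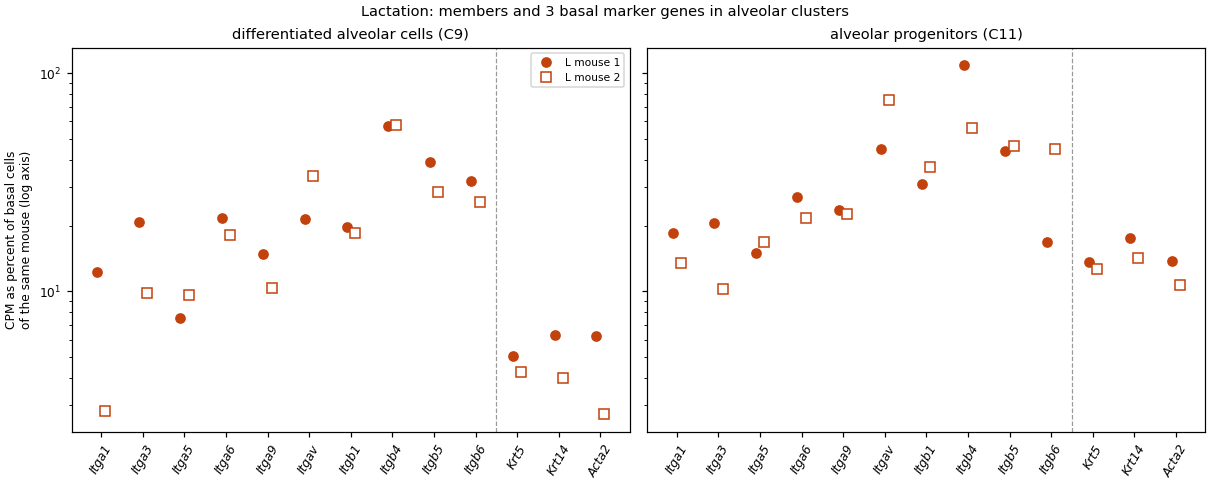
Level of each subunit and of 3 basal marker genes in lactation alveolar clusters C9 (left) and C11 (right), as percent of the CPM in basal cells of the same mouse (y axis, log scale), with 1 marker shape per mouse. In C11 Itga1 and Itga5 lie between 13.5% and 18.4%, near Krt5, Krt14 and Acta2 at 10.7% to 17.5%. Itga9 lies above them at 23.5% and 22.6%, from 14 UMIs over both mice in lactation alveolar progenitors, with no counting interval set.

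In alveolar cells 8 of 15 ligand genes rose and 1 fell in progenitors, against 15.7% and 12.3% of all genes (Spp1 from a mean of 0.765 to 1343 CPM and Lama3 1.67 ± 0.51), and 12 of 20 rose and 0 fell in differentiated cells, against 9.54% and 9.17% (Spp1 8.92 ± 0.65, Lama3 4.17 ± 0.88, and the milk fat globule protein gene Mfge8, whose product binds αvβ5, 3.88 ± 0.25). Partners numbered 7 higher and 1 lower of 25 in progenitors (Col17a1 4.79 ± 0.57, Tns1 4.51 ± 0.32, Flna 1.66 ± 0.16) and 6 higher and 2 lower of 26 in differentiated cells (Tns1 5.91 ± 0.53, Col17a1 4.396 ± 0.59, Fermt1 −2.03 ± 0.52). The median log2 fold change of the ligands was 1.14 in progenitors and 1.77 in differentiated cells, that of the partners 0.36 and 0.30, and that of all genes −0.0285 and −0.14. Tns1 stood at a mean of 85.1 CPM in lactation progenitors and 39.9 CPM in lactation differentiated cells, against 546.4 CPM in basal cells of lactation. The basal markers rose in the same cells, as given above, and their part in the calls of ligands and partners was not tested. Itga8 rose and Itgb8 fell in both, by 2.53 ± 0.31 and −1.10 ± 0.25 among 2 other subunits tested in progenitors, and by 3.07 ± 0.33 and −1.92 ± 0.40 among 5 in differentiated cells. All these list values are with TMM. The dependence on scaling given above for Itgb1, Itgav and Itga6 in differentiated cells was not tested for the lists. By mean CPM in differentiated cells, Mfge8 went from 191.2 to 1496 and Fermt1 from 28.98 to 4.13.

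**Figure D5:**
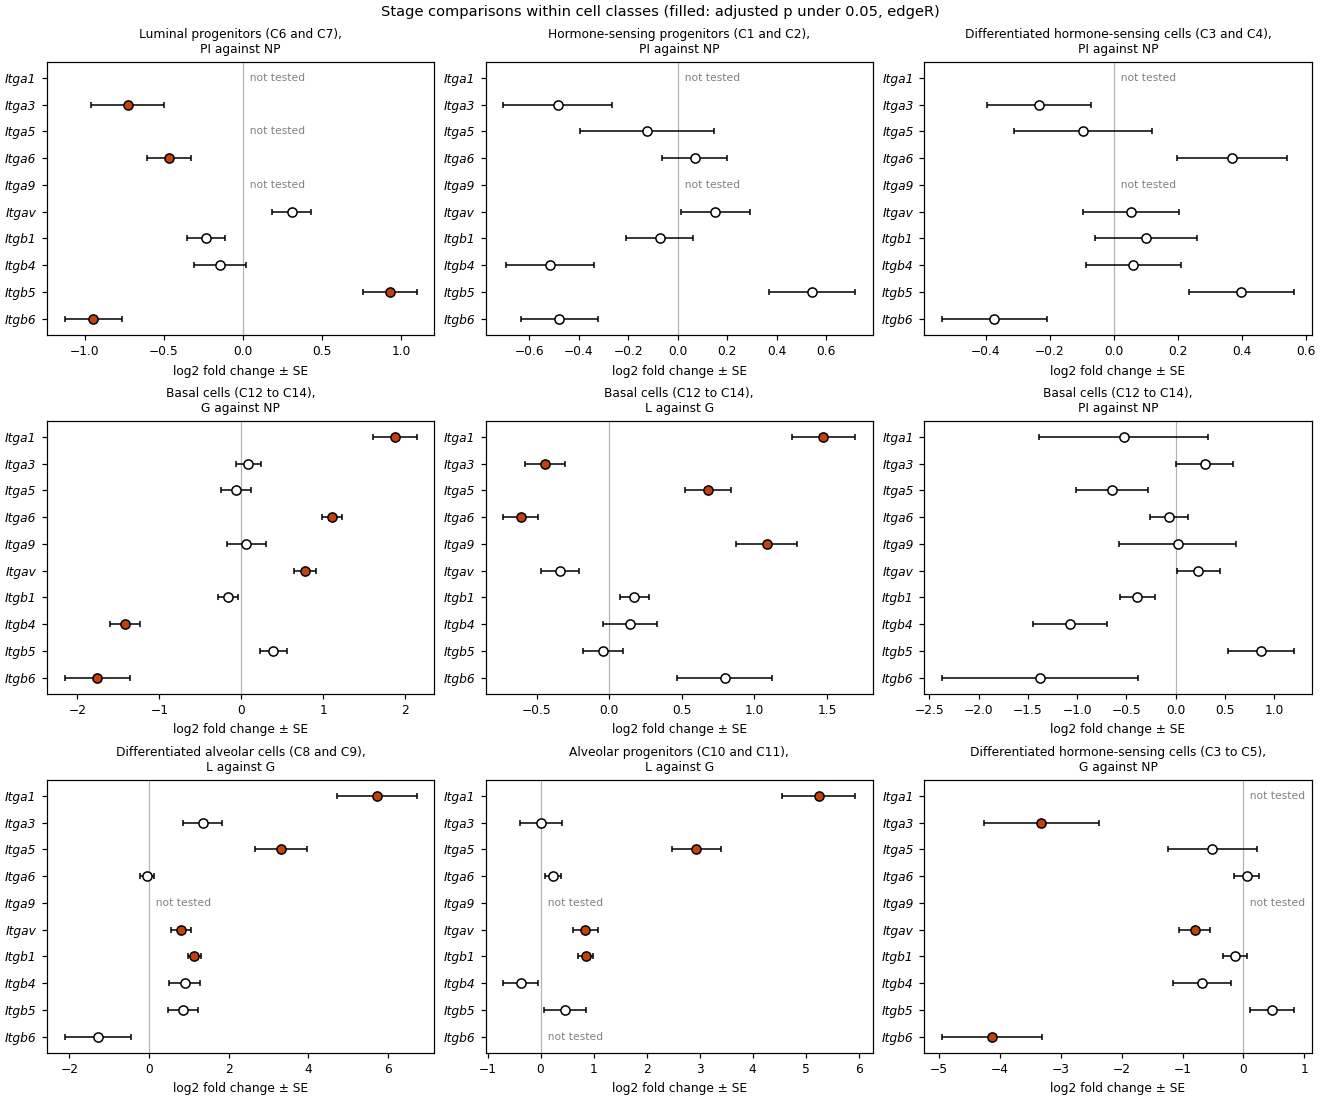
Log2 fold change ± SE (x axis) of each subunit (y axis) in 9 stage comparisons, with filled points for an edgeR adjusted p under 0.05 and subunits under the count filter marked as not tested. The x axes differ in range. Basal cells show 5 filled points from NP to G and 5 from G to L, and in C5 of gestation the points of Itgb6 and Itga3 rest on 1 UMI each.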

How the data were processed

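Single-cell 3′ RNA libraries (10x, v2) of EpCAM+ mammary cells from 8 mice, 2 per stage, were deposited by the authors as raw UMI counts per gene and cell. The submitters' processing notes name STAR and mm10, and the study's methods name Cell Ranger. All stages were collected together and pooled over the same sequencing lanes, and clusters C1 to C20 were taken from the authors' deposited annotation. No column of per-sample values was left unused (0).

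Counts were summed per mouse and cell class (20 or more cells) and tested with edgeR 4.0.16 in R 4.3.3, using TMM, filterByExpr (minimum count 10, total 15) and the quasi-likelihood test, with Benjamini-Hochberg adjustment over all genes tested and a threshold of 0.05. The mouse is the replicate. SE is the absolute log2 fold change divided by the square root of F. Levels across C1 to C15 were compared only as descriptions, since the clusters were built from the same counts. Most stage tests within a class also set 1 such cluster against another, such as C12 against C13 in basal cells. Intervals (95%) and limits from 0 counts (3 counts) cover counting error only. Cells were also thinned to 1000 UMIs each. Levels were not divided by length, because 3′ UMIs count transcripts. The study set aside 1 cluster as doublets, C20, which it took for a mixture of C8 and C13. C20 held 103 and 205 cells of the G mice and 1 cell each of L mouse 2 and PI mouse 2. Doublets within the other clusters, those of lactation included, were not looked for here beyond leaving out cells of high depth. Symbols with more than 1 gene ID numbered 56, and none is an integrin subunit described here.

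The 10 subunits and the lists of ligands, partners and other subunits were chosen with earlier results of these data known. All 10 were named in each comparison, the called other subunits, and from each other list at most the 3 called genes with the largest change, of which 1 is not reported here. Alternatives were DESeq2 1.42.0, no count filter, milk genes left out, cells above 2 times the median depth of their library and class left out, a replicate block, and each mouse left out. Scaling by total UMIs was added after seeing the data. Gene positions are from the GRCm38 annotation, and promoter windows from RefSeq (GRCm38.p6).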

Additional observations from a re-analysis of the deposited data

Results flagged for a closer look

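The change of Itga6 between NP and PI differed between luminal progenitors and differentiated hormone-sensing cells, when the difference itself was tested (−0.835 on the log2 scale, SE 0.20, edgeR adjusted p = 0.0105). In luminal progenitors Itga6 was 221.2 and 212.8 CPM in NP and 131.9 and 164.5 CPM in PI, a log2 fold change of −0.47 ± 0.14. In hormone-sensing cells it was 216.1 and 214.6 CPM in NP and 341.9 and 243.7 CPM in PI, a log2 fold change of 0.37 ± 0.17. Both PI mice were below both NP mice in the first class and above them in the second. DESeq2 did not call the difference (−0.82, adjusted p = 0.0567), and without PI mouse 1, which was in dioestrus, it was −0.42 (adjusted p = 0.127).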

How the results depend on the processing

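Of 26 calls of a subunit over 10 comparisons, 14 held in each alternative that gave a value and 25 kept their sign, the exception being Itgav in differentiated alveolar cells (−0.11 with total UMIs in place of TMM). In the same cells Itga6, not called, was −0.04 and ranged from −0.116 to 0.18 with a mouse left out, above 0 without G mouse 1 or 2. A further 48 values, called under no setting, gave 459 values under the alternatives, 41 of them with the other sign. DESeq2 called 2 subunits in luminal progenitors (4 with edgeR, without Itga6 and Itga3), 1 in hormone-sensing cells of G (3), 0 in the test between classes (1), 3 in alveolar progenitors (4, without Itgav) and 5 in differentiated alveolar cells (4, with Itga3). With no filter 2 were called in hormone-sensing progenitors (0). With cells of high depth left out, 2 were called in differentiated alveolar cells (4), 2 in alveolar progenitors (4), 2 between classes (1) and 4 in basal cells from NP to G (5, without Itgb6). Leaving out each mouse gave 2 to 4 in luminal progenitors, 0 to 2 in hormone-sensing progenitors, 0 to 2 in differentiated ones, 1 to 3 in differentiated alveolar cells, 1 to 2 in hormone-sensing cells of G and 1 to 2 between classes, a lone mouse being assumed to vary like the others. In part this follows from fewer samples, or from subunits that no longer passed the count filter, and otherwise the cause was not tested. Replicate numbers did not pair the mice (correlations of deviations −0.0516 to 0.0731), and the replicate block left each count of called subunits as it was (4, 0, 0, 5, 5, 0, 4, 4 and 3). The 28 and 59 basal cells of PI and the 20 and 41 cells of C5 limit what could be seen there.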
